A study of Mus musculus with 2 samples.

Results

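The proteasome gene family of mouse gastrocnemius, the large calf muscle, was measured in 2 total RNA libraries. Its members are the genes whose symbol begins with Psm, continues with 1 letter from a to g and ends in a number, with or without a last letter. This rule found 49 of the 55536 annotated genes in the tables, which hold 22028 protein-coding genes. The samples came from males of the strain B6CASTF1/J (B6Cast F1) aged 10 days, with no treatment or allele named in the labels, and form 1 group of 2 biological replicates. The labels number the animals separately under a shared donor code, so the spread between replicates is that between these samples. Each library was made from 300 ng of RNA with ERCC spike-ins, and the libraries held 38874862 and 38160786 expected counts in replicates 1 and 2. With 1 group, no comparison between conditions exists and no test was made: values are given per library, or as mean ± SD with n = 2.

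The proteasome degrades proteins tagged with ubiquitin. Its 20S core is a barrel of outer alpha rings and inner beta rings, in which Psmb6, Psmb7 and Psmb5 encode the catalytic subunits beta 1, beta 2 and beta 5, and in cells exposed to interferon gamma these are replaced by the immunoproteasome subunits Psmb9, Psmb10 and Psmb8. The 19S cap recognises, unfolds and feeds in ubiquitylated proteins, the PA28 and PA200 activators bind the same ends of the barrel, and dedicated chaperones assemble core and cap. In muscle the system clears myofibrillar proteins and is best known for its part in atrophy.

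The stretches before the annotated starts of the 3 immunoproteasome genes and of the constitutive partners Psmb5 and Psmb6 are shown. They were chosen because the paired genes differ widely in level. Psmb7, the partner of Psmb10, had no promoter window in the reference used and was not searched. The stretches shown are the 250 bases upstream of the RefSeq start, on the gene's strand and from GRCm38.p6. Capitals mark the core of the antioxidant response element, the letters TGACNNNGC on either strand, which is bound by the Nfe2l1 and Nfe2l2 family of activators of proteasome genes.
Psmb8: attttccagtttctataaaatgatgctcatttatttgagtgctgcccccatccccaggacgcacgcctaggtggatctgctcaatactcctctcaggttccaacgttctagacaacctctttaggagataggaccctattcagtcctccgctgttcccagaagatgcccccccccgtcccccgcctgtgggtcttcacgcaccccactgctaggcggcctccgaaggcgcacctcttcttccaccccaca
Psmb9: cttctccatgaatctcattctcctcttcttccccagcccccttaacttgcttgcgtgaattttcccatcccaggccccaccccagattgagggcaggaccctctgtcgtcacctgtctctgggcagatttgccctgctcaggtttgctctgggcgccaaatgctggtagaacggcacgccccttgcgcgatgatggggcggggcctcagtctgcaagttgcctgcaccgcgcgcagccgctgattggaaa
Psmb10: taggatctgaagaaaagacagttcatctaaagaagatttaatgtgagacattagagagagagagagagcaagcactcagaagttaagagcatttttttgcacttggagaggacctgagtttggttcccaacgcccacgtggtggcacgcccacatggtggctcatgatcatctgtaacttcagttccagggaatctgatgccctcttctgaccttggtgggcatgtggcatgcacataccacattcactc
Psmb5: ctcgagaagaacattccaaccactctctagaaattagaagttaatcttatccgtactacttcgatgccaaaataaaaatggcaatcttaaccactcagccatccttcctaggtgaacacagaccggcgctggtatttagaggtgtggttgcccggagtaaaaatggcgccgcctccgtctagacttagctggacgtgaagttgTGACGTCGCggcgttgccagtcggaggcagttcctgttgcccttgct
Psmb6: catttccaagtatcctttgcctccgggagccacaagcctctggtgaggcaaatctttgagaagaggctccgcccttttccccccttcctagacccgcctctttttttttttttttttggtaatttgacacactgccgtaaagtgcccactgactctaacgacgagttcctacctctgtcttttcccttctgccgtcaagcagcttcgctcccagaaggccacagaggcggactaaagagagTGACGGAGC
The windows lie at chr17:34197945-34198194 on the plus strand, chr17:34187331-34187580 on the minus strand, chr8:105938393-105938642 on the minus strand, chr14:54617996-54618245 on the minus strand and chr11:70525107-70525356 on the plus strand. Those of Psmb8 and Psmb9 fall inside the span that GENCODE M21 gives the gene, since other transcripts start further upstream, and those of Psmb10 and Psmb5 overlap it in part. The core element stood 47 bases before the start of Psmb5 and 9 bases before that of Psmb6, and in none of the 3 immunoproteasome windows. Across the family it was in 5 of 44 promoter windows (11.4%), which represent 41 of the 49 genes, and in 10.2% of all 32851 windows. The other family windows with it belong to Psmc6, Psmd12 and Psmd9. The core of the interferon-stimulated response element, searched as GAAA, any 2 bases and GAAA on either strand, was in 3 family windows (6.82%), those of Psmb3, Psmd4 and Psmd9, and in 2.98% of all windows. A CCAAT box on either strand was in 14 family windows (31.8%) and in 33.9% of all. By group the CCAAT box was in 6 of 12 windows of the 20S core, 4 of 15 of the 19S cap, 1 of 7 of activators and inhibitor, 1 of 6 of assembly factors and 1 of 3 of the immunoproteasome. A match describes letters in a window and is not a bound site.

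Nearly all proteasome genes were expressed, and their levels differed little between the mice. Of the 49 genes, 45 reached 1 TPM (transcript reads per effective length, scaled to a fixed total per library) in both libraries, the level called detected here. Summed over the family, TPM was 2526 in replicate 1 and 2429 in replicate 2, a mean of 2478 ± 68.9 TPM (n = 2). Of all TPM of nuclear protein-coding genes it took 0.577% and 0.550%. The plot of TPM by gene shows its order of level: core and cap subunits highest, activators next, with Psme4, Psme2 and Psme3 just above the lowest core subunit Psma2, then chaperones and Psmb10, with Psmb8, Psmb9, Psme2b and the tissue-restricted genes at the bottom.

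**Figure D1:**
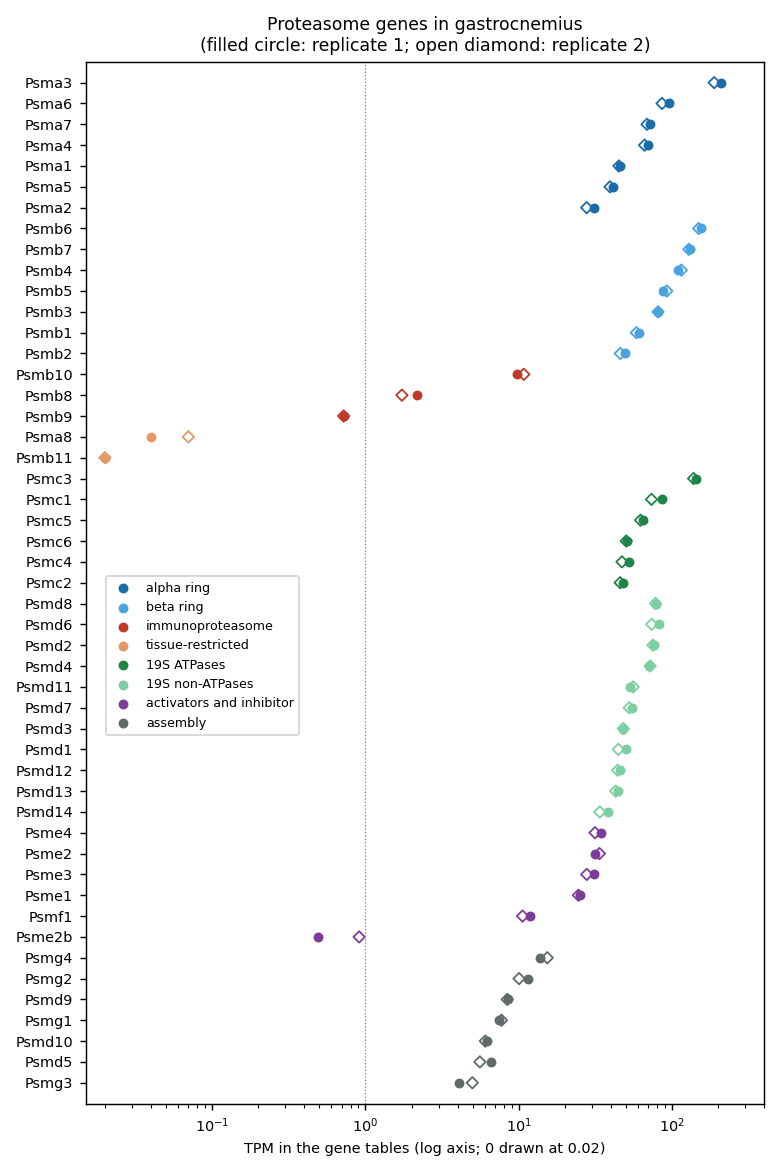
TPM on a log axis for the 49 proteasome genes, by group, with filled circles for replicate 1 and open diamonds for replicate 2. Psma3 is highest with 207.75 and 188.14 TPM, the 31 core and cap subunits all lie above 27 TPM, and Psmb11 at 0 is drawn at the left edge.

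Markers of the labelled tissue were present. All 6 skeletal muscle markers were detected, led by Acta1, skeletal actin, at 23397 ± 1008 TPM. Leukocyte markers summed to 38.7 and 41.1 TPM over 10 genes, of which 5 were detected. Lyz2 had 14.83 and 17.86 TPM and Csf1r 13.89 and 12.30 TPM. The other detected ones were Cd74, Cd68 with 2.59 and 2.53 TPM and Adgre1 with 1.69 and 2.52 TPM. Among those not detected were the pan-leukocyte gene Ptprc at 0.78 and 0.88 TPM and the natural killer cell gene Ncr1 at 0. Endothelial markers, all 5 detected, summed to 139 and 149 TPM. Of 4 germ cell markers none was detected. In bulk tissue, fewer cells of a type and less RNA per cell cannot be told apart.

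The alpha ring genes had a median of 68.0 ± 2.65 TPM over 7 subunits. Psma3, which encodes alpha 7 (chr12:70974621-70996347, mm10, GENCODE M21), was the highest gene of the family with 207.75 TPM in replicate 1 and 188.14 TPM in replicate 2. Psma6, alpha 1, followed with 95.95 and 86.00 TPM. Psma7 (alpha 4) had 71.95 and 68.62 TPM and Psma4 (alpha 3) 69.85 and 66.10 TPM, so that their ranges overlapped. Psma1 (alpha 6) had 45.90 and 44.98 TPM, above the 41.03 and 39.37 TPM of Psma5 (alpha 5). Psma2, alpha 2, was the lowest with 30.78 and 27.74 TPM. Thus genes whose proteins occupy each ring in equal number differed 6.77-fold in RNA level between Psma3 and Psma2, and 14.2-fold in the kallisto-format tables, the second deposited quantification of the same libraries.

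The beta ring genes had a median of 90.1 ± 3.14 TPM, above that of the alpha ring in both libraries. Their highest member was the catalytic Psmb6 (chr11:70525367-70527858) with 153.81 and 149.11 TPM. The catalytic Psmb7 had 130.16 and 128.64 TPM, and the catalytic Psmb5 87.88 and 92.32 TPM. Between Psmb7 and Psmb5 stood Psmb4, the non-catalytic beta 7, with 108.58 and 114.95 TPM. The remaining non-catalytic subunits were lower than all 3 catalytic ones in the gene tables, but Psmb3 was above Psmb5 in the kallisto-format tables, with 132 and 135 TPM against 108 and 118 TPM. Psmb3 (beta 3) had 80.73 and 80.97 TPM and Psmb1 (beta 6) 60.95 and 58.48 TPM. Psmb2 (beta 4), the lowest, had 49.66 and 45.95 TPM.

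Among the 14 constitutive core genes, log2(TPM + 0.1) had an SD over genes of 0.776 ± 0.0115. The 17 cap genes were closer together, with an SD of 0.476, and differed at most 3.92-fold. The 81 cytosolic ribosomal protein genes, another complex with fixed stoichiometry, had an SD of 1.03 around a median of 317 TPM. The 78 mitochondrial ribosomal protein genes had an SD of 1.01 around 23.5 TPM. These spreads describe single sets of genes and were not tested against each other.

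The immunoproteasome genes were far below their partners. Psmb8 (beta 5i) had 2.18 and 1.73 TPM from 65 and 52 expected counts, against 87.88 and 92.32 TPM for Psmb5. Psmb9 (beta 1i) had 0.73 and 0.72 TPM from 27 and 22 counts, against 153.81 and 149.11 TPM for Psmb6. Psmb10 (beta 2i) had 9.74 and 10.79 TPM, against 130.16 and 128.64 TPM for Psmb7. In each pair the immunoproteasome gene was lower in both libraries, with no overlap. The log2 ratio of immunoproteasome gene over partner was -5.46 ± 0.27 for Psmb8, -7.52 ± 0.02 for Psmb9 and -3.64 ± 0.12 for Psmb10. The log2 ratios include a pseudocount of 0.1 TPM. In folds of TPM without it, Psmb8 was 46.8 ± 9.23 times, Psmb9 209 ± 2.55 times and Psmb10 12.6 ± 1.02 times lower than its partner. The small SDs of the Psmb9 values leave out counting error, although the gene rests on few counts, 27 and 22. Its fold was 169 in the kallisto-format tables and 132 with the posterior mean TPM of the gene tables. Together the 3 genes made up 3.29% and 3.45% of the summed TPM of the 3 pairs, a mean of 3.37 ± 0.116%, most of it Psmb10.

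**Figure D2:**
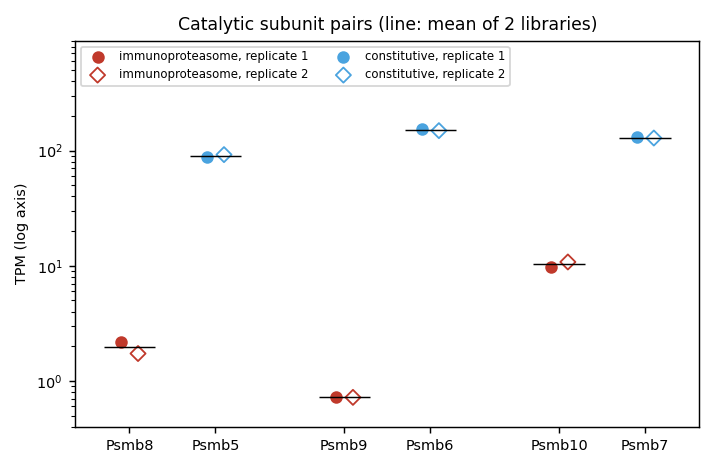
TPM on a log axis of each immunoproteasome gene, in red, left of its constitutive partner, in blue, with circles for replicate 1, diamonds for replicate 2 and lines at the mean. The gap is widest for Psmb9 and Psmb6, at -7.52 on the log2 scale, and narrowest for Psmb10 and Psmb7, at -3.64.

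The leading protein-coding transcripts of each pair share no long stretch of sequence. The longest identical runs between the transcripts of each pair are shown in full.
Psmb8 and Psmb5: catgatctgtggctggga
Psmb9 and Psmb6: cagccgctgat
Psmb10 and Psmb7: actaccatcgcgggg
They are 18, 11 and 15 bases long. The transcripts assigned to Psmb8 and Psmb10 were only partly coding ones. Of Psmb8 TPM, 45.6 ± 2.25% came from annotated retained-intron transcripts in the RSEM-format tables but 9.78% in the kallisto-format tables. Of Psmb10 TPM, 26.7 ± 4.06% came from its protein-coding transcript Psmb10-201, 37.4 ± 0.608% from a processed transcript of 426 bases and 35.9 ± 4.66% from retained-intron transcripts. In the kallisto-format tables these were 27.7%, 7.20% and 65.1%.

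Psmb8 and Psmb9 lie in the class II region of the major histocompatibility complex on chromosome 17, where they neighbour the peptide transporter genes Tap1 and Tap2. The span from the start of Psmb9 to the end of Psmb8 is chr17:34181987-34201454, with 9956 bases between the genes and Tap1 in the gap. Psmb9 and Tap1 point away from each other and share 212 exonic bases. Tap1 had 1.12 and 1.49 TPM and Tap2 2.98 and 3.04 TPM, close to the level of their proteasome neighbours. The rest of the antigen processing list was higher. B2m, the light chain of class I molecules, had 46.23 and 46.95 TPM, and Tapbp, the loading factor tapasin, 17.32 and 18.63 TPM. H2-D1 had 16.74 and 16.51 TPM, H2-K1 16.56 and 14.39 TPM, and the trimming peptidase Erap1 7.31 and 10.17 TPM. All 7 genes of that list were detected. Leukocytes are rich in immunoproteasome, and their markers stood at the levels given above, with Cd74 at 4.53 and 4.81 TPM. Their part in the immunoproteasome values was not tested.

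Both tissue-restricted members were undetected. Psmb11, the beta 5t subunit of the thymic cortex, had 0 counts in both libraries. The floor of 3 counts allows it up to 0.0400 TPM in replicate 1, counting error only, while the kallisto-format tables assign it 7.8 and 5.1 estimated counts. It lies 3410 bases from Psmb5 on chromosome 14. Psma8, the testis alpha 4 variant, had 0.04 and 0.07 TPM from 2 counts in each library, below the floor of 3 counts. Foxn1 and Aire, genes of the thymic epithelium, had 0.01 TPM or less and 0.02 TPM or less in both libraries.

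The 19S cap genes stood below the core. The ratio of cap median to core median was 0.701 ± 0.00134. The 6 ATPases, which form the unfolding ring at the base of the cap, had a median of 57.4 ± 1.60 TPM. Psmc3 (Rpt5) was the highest with 143.38 and 138.14 TPM. Psmc1 (Rpt2) had 85.48 and 73.43 TPM and Psmc5 (Rpt6) 64.61 and 62.26 TPM. The other ATPases lay within a narrow band. Psmc4 (Rpt3) had 52.41 and 47.13 TPM, Psmc6 (Rpt4) 50.62 and 50.23 TPM and Psmc2 (Rpt1) 47.73 and 45.84 TPM.

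The 11 non-ATPase cap genes had a median of 53.0 ± 0.665 TPM and ranged only from 35.9 to 78.4 TPM in mean. Psmd8 (Rpn12) had 78.78 and 77.92 TPM, and Psmd6 (Rpn7) 82.55 and 73.64 TPM. Psmd2 (Rpn1), a large scaffold that docks ubiquitin-binding shuttles, had 75.83 and 74.98 TPM. Psmd4 (Rpn10), a ubiquitin receptor of the cap, had 71.21 and 71.97 TPM. The range of Psmd6 covered those of Psmd8 and Psmd2, while Psmd4 lay below it. Psmd11 (Rpn6) had 53.46 and 55.77 TPM and Psmd7 (Rpn8) 54.65 and 52.52 TPM. Psmd3 (Rpn3) had 47.51 and 48.07 TPM and Psmd1 (Rpn2), the other large scaffold, 49.84 and 44.60 TPM. Psmd12 (Rpn5) had 45.82 and 44.13 TPM and Psmd13 (Rpn9) 44.65 and 42.92 TPM. Psmd14 (Rpn11), the deubiquitylase that removes ubiquitin chains before degradation, was the lowest cap gene with 38.04 and 33.77 TPM.

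Taking the 31 core and cap genes in order of mean level, 14 of the 30 neighbouring pairs had ranges that did not overlap between the libraries and 16 overlapped. Of the 31 genes, 26 lay within 2-fold of their median of 63.4 TPM. The 5 outside were Psma3, Psmb6, Psmc3 and Psmb7 above it and Psma2 below it.

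The activators shared their total almost evenly. Psme1, PA28 alpha, had 24.99 and 24.49 TPM, and Psme2, PA28 beta, had 31.64 and 33.59 TPM. Psme3, the nuclear PA28 gamma, had 30.81 and 27.76 TPM, and Psme4, the PA200 activator, 34.42 and 31.43 TPM. As shares of the 4 genes, Psme1 had 20.7 ± 0.266%, Psme2 27.3 ± 1.89%, Psme3 24.5 ± 1.14% and Psme4 27.5 ± 1.02%, so that Psme2 and Psme4 did not differ beyond their spread. Psme1 and Psme2, which are induced by interferon gamma like the immunoproteasome genes, thus stood well above Psmb8 and Psmb9. They lie 5911 bases apart at chr14:55578123-55591113. Psmf1, the inhibitor PI31, had 11.82 and 10.59 TPM. Psme2b, a near copy of Psme2 on chromosome 11, had 0.49 and 0.91 TPM, and it shares a run of 264 identical bases and 99.4% identity with Psme2, so its few counts may belong to either gene.

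The assembly factors were the lowest group in which every gene was detected, at a median of 7.59 ± 0.184 TPM over 7 genes. For the core, the chaperone genes are Psmg1 and Psmg2, which encode a pair that starts the alpha ring, and Psmg3 and Psmg4, which encode a second pair. Psmg4 had 13.72 and 15.35 TPM, the highest, against 4.08 and 4.98 TPM for Psmg3, the lowest of the group. Psmg2 had 11.41 and 10.04 TPM and Psmg1 7.46 and 7.72 TPM. The cap chaperones Psmd5 (S5b), Psmd9 (p27) and Psmd10 (gankyrin) were alike in level. Psmd9 had 8.50 and 8.41 TPM, Psmd10 6.24 and 6.05 TPM and Psmd5 6.57 and 5.58 TPM.

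Proteasome genes outside the symbol rule were detected as well. Of the 11 listed components 9 had a row, one being listed under its newer name Ecpas, and Paaf1 was not analysed here. All 9 were detected, at a median of 34.0 ± 0.481 TPM. Highest in the gene tables was Ecpas, a proteasome adaptor, at 92.1 ± 6.09 TPM. Pomp, which matures the core, followed at 60.7 ± 5.66 TPM, and Adrm1, another ubiquitin receptor of the cap, at 46.2 ± 0.389 TPM. In these tables Pomp was thus several times above the Psm-named core chaperones. Its log2 ratio of gene table over kallisto-format table, both rescaled over nuclear protein-coding genes, was 0.77, past 1.5-fold. The level and rank of Pomp are therefore less certain. Of 13 ubiquitin and delivery genes all were detected, among them the ubiquitin genes Ubb at 469 ± 33.0 TPM and Rps27a at 338 ± 25.2 TPM.

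Between the mice, proteasome genes differed little. The ratio of replicate 1 over replicate 2 was taken from expected counts scaled with TMM, for members with a mean count of 100 or more. Of 49 members 44 passed, and Psma8, Psmb11, Psmb8, Psmb9 and Psme2b did not. Over the 44 the log2 ratio had a median of -0.02, an SD of 0.09 and a range from -0.35 to 0.10. Over all 10967 protein-coding genes past the filter the median was -0.02 and the SD 0.22. The median absolute log2 ratio was 0.06 for the members and 0.11 for all. Past 1.2-fold there was 1 member of 44, where 15.1% of all genes were. No member was over 1.2-fold higher in replicate 1 (6.44% of all genes), and 1 was over 1.2-fold lower (8.65% of all genes). Where the mean count reached 1000, a limit chosen after seeing the data, 0 of 33 members passed 1.2-fold, against 9.45% of 4104 genes.

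**Figure D3:**
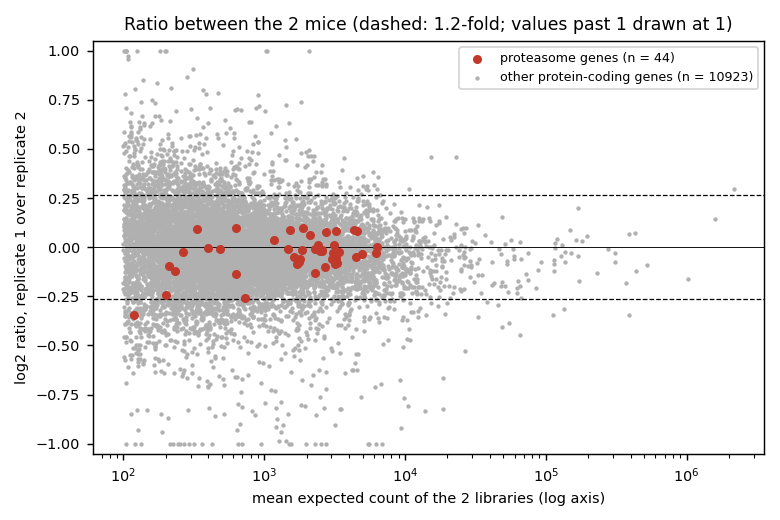
Log2 ratio of replicate 1 over replicate 2 against mean expected count on a log axis, with 44 proteasome genes in red and 10923 other protein-coding genes in grey. All but 1 of the red points, Psmg3 at the left, lie between the dashed lines at 1.2-fold.

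The member past 1.2-fold was Psmg3, with 108 and 130.86 counts and a log2 ratio of -0.35, whose 95% counting interval of -0.73 to 0.03 includes 0. Psme1 had 681.99 and 777 counts and a log2 ratio of -0.26 (-0.41 to -0.11). Psmg4 had 190 and 214 counts and a log2 ratio of -0.24. Intervals are exact binomial ones and cover counting error only. They lay above 0 for 4 of the 44 genes (13.8% of all genes), Psma2, Psma3, Psmd1 and Psmd6. They lay below 0 for 5 (22% of all genes), Psmb5, Psmd11, Psmd3, Psmd4 and Psme1. Summed over the 44 members, counts were 102208 and 98375, a log2 ratio of -0.01 (-0.03 to -0.00201). This direction rests on the scaling. In deposited TPM 33 of the 44 members were higher in replicate 1, and 60.2% of all protein-coding genes past the filter. In scaled counts 13 of the 44 were, and 44.1% of all, and 20 had opposite signs on the 2 scales. No direction between the mice can therefore be given for the family.

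Some regulators of proteasome genes had log2 ratios between the mice larger in size than that of any proteasome gene past the filter. This compares single values only. The counting interval of Psmg3, -0.73 to 0.03, covers the ratios of both Nfe2l1 and Nfe2l2. Of all protein-coding genes past the filter, 15.1% passed 1.2-fold. Nfe2l1, which encodes the activator that raises proteasome gene expression when proteasome activity is short, had 82.50 and 116.51 TPM and a log2 ratio of -0.42 (-0.46 to -0.38). Nfe2l2, the activator of the antioxidant response, had 12.10 and 14.71 TPM and a log2 ratio of -0.37 (-0.50 to -0.24). Ddi2, the protease that activates the Nfe2l1 product, had 17.78 and 16.53 TPM and Ngly1, the deglycosylase that acts on it, 19.65 and 18.58 TPM. Their log2 ratios were -0.03 and 0.10. Of the 7 regulators 6 were detected. Of the genes that mediate interferon responses, Irf1 had 4.00 and 3.43 TPM, and Nlrc5, the class I activator, was undetected with 0.18 and 0.09 TPM. Psmb5 and Psmb6, whose windows hold the core element shown above, had log2 ratios of -0.13 and -0.03 between the same mice. The other members with the element in a window, Psmc6, Psmd12 and Psmd9, had 0.01, -0.02 and -0.004. These are values of single pairs of libraries, and a relation among them cannot be tested with 2 samples.

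The deposited tables hold a second quantification of the same libraries, in the layout of kallisto, and most members kept their level in it. With both tables rescaled over nuclear protein-coding genes, the log2 ratio of gene table over kallisto-format table had a median of 0.11 for 44 members and 0.18 for all 10962 genes compared. Past 1.5-fold, 1 of 44 members was higher in the gene table (4.19% of all genes) and 1 was lower (1.83% of all genes). The higher was Psma2 at 0.98 and the lower Psmc6 at -0.69. Psma2-201, of 2911 bases, held 46.4 ± 1.29% of Psma2 in the RSEM-format transcript tables, against 73.8% in the kallisto-format ones. Psmc6 had 55.5 ± 1.73% on Psmc6-201 in the RSEM-format tables, against 19.8% in the kallisto-format ones.

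**Figure D4:**
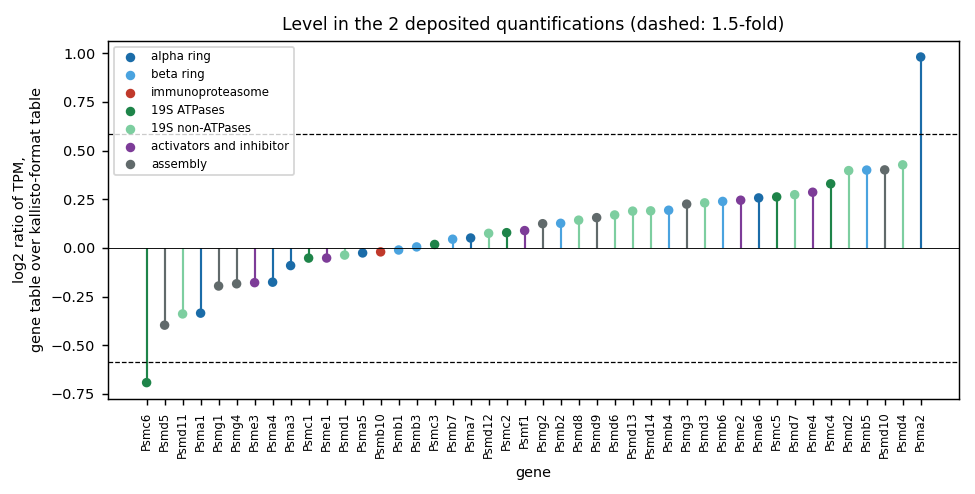
Log2 ratio of TPM in the gene table over the kallisto-format table for 44 proteasome genes in order, coloured by group, with dashed lines at 1.5-fold. Psma2 at 0.98 and Psmc6 at -0.69 lie outside the lines.

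Most members were dominated by 1 transcript. The leading transcript held a median of 90.2 ± 1.85% of gene TPM over 44 members. It held 90% or more in 22 genes, 50 to 90% in 17 and under 50% in 5, which were Psma3, Psmb10, Psmd11, Psmd13 and Psmd5. In 43 of 44 genes it was a protein-coding transcript, the exception being Psmb10. The kallisto-format tables had the same leading transcript in 32 of 44 genes. Transcript shares are therefore less certain than gene levels.

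Psma3 shows how far the transcript shares can part. In the RSEM-format tables Psma3-204 held 43.0 ± 1.09% and the 312-base Psma3-208 held 29.3 ± 0.219%, both protein-coding. In the kallisto-format tables both were at 0, and Psma3-201, annotated as a target of nonsense-mediated decay, held 46.2%. Psma3-207, annotated likewise, held 44.9%. The gene's level differed by only -0.09 on the log2 scale between the tables. Psmb1 was led by Psmb1-201 in the RSEM-format tables, with 73.6 ± 4.94%, and by Psmb1-204 in the kallisto-format ones, with 98.5%. In Psmd13 the nonsense-mediated decay transcript Psmd13-211 held 35.7 ± 0.106% in the RSEM-format tables and 44.0% in the kallisto-format ones. Psme1-209, of the same class, held 25.1% of Psme1 in replicate 1 and 6.33% in replicate 2.

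By annotated class, 88.5 ± 0.533% of the members' TPM came from protein-coding transcripts and 5.96 ± 0.188% from retained-intron transcripts. Over all protein-coding genes past the filter these were 88.1 ± 0.187% and 5.36 ± 0.284%. In the kallisto-format tables the protein-coding share was 73.9% for the members and 86.5% for all genes. The share of nonsense-mediated decay transcripts there was 12.1% for the members and 1.99% for all genes. It was uneven across the family, at 36.8% in the alpha ring, where Psma3 had 95.3%, and 13.2% in the non-ATPase cap genes. The beta ring had 0% and the other groups 6.71% or less. In the RSEM-format tables retained-intron RNA within the family was concentrated in a few genes. The kallisto-format tables placed it partly in other genes. Psmb4 had 40.7 ± 4.46% of its TPM in such transcripts, and 45.2% in the kallisto-format tables, but mostly on different transcripts. Its retained-intron transcript of 666 bases held 31.0% in the RSEM-format tables and 3.08% in the kallisto-format ones. For that of 651 bases these were 0.565% and 41.8%. Psme2 had 26.5 ± 0.990% in retained-intron transcripts in the RSEM-format tables and 21.4% in the kallisto-format ones. Psmc4 had 3.88% in the RSEM-format tables but 50.1% in the kallisto-format ones, and Psma1 1.49% but 34.9%. Psmc1 went the other way, with 21.8% in the RSEM-format tables and 0% in the kallisto-format ones. In Psmc3, 36.9 ± 1.00% came from processed transcripts, and 36.2% in the kallisto-format tables.

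**Figure D5:**
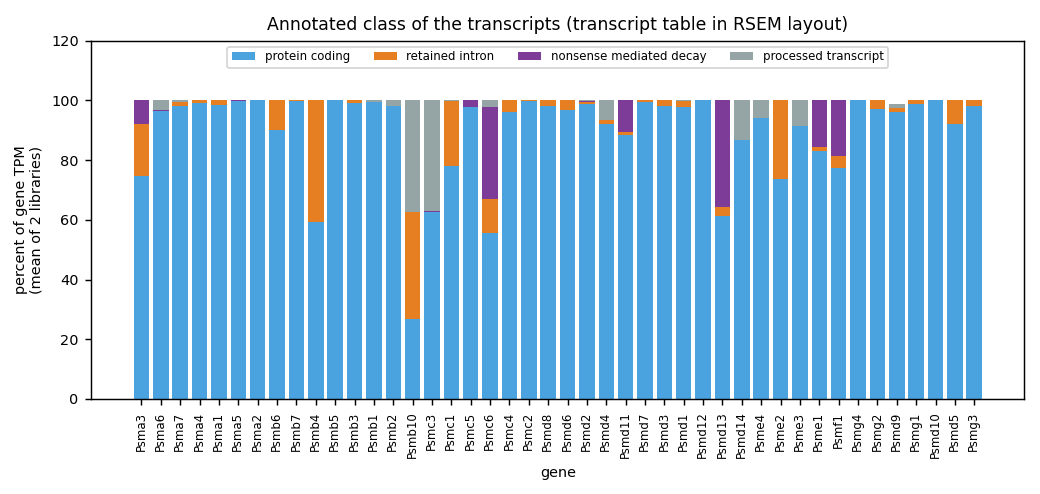
Percent of gene TPM by annotated transcript class for 44 proteasome genes, as mean of 2 libraries in the RSEM-format transcript tables. Most bars are nearly all protein-coding, while Psmb10 has 26.7% and Psmb4 59.3% in that class.

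Near copies touched a minority of members. With at least 90% identity over at least 200 bases, 16 of the 49 genes had pseudogene copies, 29 in all, which held 999 and 919 expected counts together. Relative to the member's own count these reached 14.5% for Psma5, 10.9% for Psmb3, 8.45% for Psmb5 and 5.68% for Psma3. Most of the Psma5 copies' counts, 228.58 and 192.59, were on Gm8394. In the kallisto-format tables the copies of Psmb3 and Psma3 held 0.307% and 0.0361% of the member's count, and those of Psma5 and Psmb5 held 11.6% and 10.9%. Exons of 14 members overlap those of another gene, for 11 of them on the opposite strand. Psmb7 shares 405 bases with Nek6, Psmc3 215 with Slc39a13 and Psmd13 342 with Sirt3. The sources used here do not say if reads were counted by strand, so values of overlapping genes on opposite strands are uncertain.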

How the data were processed

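Total RNA of 2 gastrocnemius samples was measured. The authors deposited, per the file headers and accompanying notes, expected counts, posterior mean counts and TPM per gene and transcript in RSEM layout, computed from alignments to the transcriptome (mm10, GENCODE M21), and each transcript's percent of its gene. A further deposited table in kallisto layout holds estimated counts and TPM. The sources used here do not give program versions or the aligner. Deposited TPM is scaled over all features, spike-ins included.

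Members were found by symbol and mapped by gene ID. The members, gene lists and alternatives were chosen with earlier results of these data known. Named genes are all members, the 3 highest genes of the lists of other components and of ubiquitin and delivery, and all regulators, antigen processing genes and muscle ligases, apart from some that are not reported here. Markers and Uchl5 were named after their values were seen. Rounded expected counts were scaled with TMM in edgeR 4.0.16 (R 4.3.3) over endogenous genes whose mean count reached 10, and log2 ratios used a prior count of 0.5. A pseudocount of 0.1 TPM was used on log scales of TPM. Members below a mean count of 100 were left out of ratios between libraries or tables and of transcript shares, except that Psmb8 transcript classes are given. Ratio intervals of 95% are exact binomial. DESeq2 1.42.0 size factors, library totals, spike-in totals, posterior mean counts and the kallisto-format tables were alternatives. The ratio step was checked on simulated data. Near copies were searched with blastn among GENCODE M21 transcripts.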

Additional observations from a re-analysis of the deposited data

How the results depend on the processing

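Of 74 values recomputed with both libraries, 30 stayed within the spread of the 2 libraries or kept their count, 42 moved beyond it and 2 reversed. Medians of the alpha ring, beta ring, immunoproteasome, ATPase, non-ATPase, activator and assembly genes were 113, 134, 2.55, 111, 80.4, 43.0 and 12.9 TPM in the kallisto-format tables, 155, 205, 4.45, 131, 121, 61.5 and 17.3 TPM when scaled over nuclear protein-coding genes, and 77.4, 95.9, 4.32, 71.8, 57.4, 21.9 and 8.29 TPM as means in place of medians. The kallisto-format and nuclear-scaled medians are not on the scale of the deposited gene-table TPM, so their moves include a change of scale. With both tables rescaled alike, the median log2 ratio of gene table over kallisto-format table was 0.11 over 44 members. The immunoproteasome share was 3.81% in the kallisto-format tables and 3.64% with posterior mean TPM. With counts per base of the leading coding transcript, an alternative chosen after seeing the data, it was 2.27%. The log2 ratio of Psmb9 over Psmb6 was -7.26 in the kallisto-format tables and -6.92 with posterior mean TPM. The spread among core genes was 0.901 with the kallisto-format tables and 0.792 with counts per base. The cap to core ratio was 0.728, 0.706, 0.721 and 0.703 with the kallisto-format tables, posterior mean TPM, means and counts per base. Psme1, Psme2, Psme3 and Psme4 had 22.6%, 24.4%, 29.2% and 23.8% in the kallisto-format tables, and Psme1 22.1% with posterior mean TPM. The median log2 ratio between the mice reversed to 0.0206 with library totals and 0.0089 with spike-in totals, and was -0.0576 with kallisto-format counts; the scaling sets this sign by construction. With no filter on counts 2 members, Psmg3 and Psme2b, passed 1.2-fold. Of the 44 members past the filter 0 passed 1.5-fold, and 0 of those with a mean count of 1000 or more, a limit added after seeing the data, passed 1.2-fold. The leading transcript's share was 66.6% in the kallisto-format tables. With either library alone, the medians ran from 66.1 to 69.9, 87.9 to 92.3, 1.73 to 2.18, 56.2 to 58.5, 52.5 to 53.5, 26.1 to 27.9 and 7.46 to 7.72 TPM in the same order of groups. The immunoproteasome share ran from 3.29% to 3.45%, the core spread from 0.768 to 0.784, the cap to core ratio from 0.700 to 0.702, and the shares of Psme1 to Psme4 from 20.5% to 20.9%, 26.0% to 28.6%, 23.7% to 25.3% and 26.8% to 28.2%. The median ratio between tables ran from 0.0972 to 0.113 and the leading share from 88.9% to 91.5%. With 2 libraries such ranges are the libraries themselves and always lie within the SD, so they say nothing about stability. No paired analysis was possible because the labels give only 1 group. Counts limit Psmb8, Psmb9, Psme2b, Psma8 and Psmb11, all under a mean count of 100.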

Other observations

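The muscle ubiquitin ligases, which mark proteins for the proteasome in atrophy, were both detected. Trim63 (MuRF1) had 45.58 and 55.50 TPM in replicates 1 and 2, with a log2 ratio of -0.36 (95% counting interval -0.44 to -0.29). Fbxo32 (atrogin-1) had 7.69 and 8.21 TPM, with a log2 ratio of -0.17 (-0.26 to -0.07). The median over proteasome genes was -0.02. Uchl5, a deubiquitylase of the cap, had 11.26 and 8.92 TPM and a log2 ratio of 0.25 (0.07 to 0.44), while its receptor Adrm1 had -0.08.

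Ccl25, which was listed as a thymic epithelium marker, had 3.41 and 2.06 TPM, although Foxn1 and Aire had 1 count or none in each library. The chaperone pair Psmg3 and Psmg4, which acts as a dimer, differed 3.21-fold in mean TPM.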
